A study of Rattus norvegicus with 4 samples.

Results

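Cytosolic ribosomal protein genes were followed in cultured neonatal rat ventricular myocytes on uncoated and on fibronectin-coated dishes. A probe set, the group of array oligonucleotides that reads 1 transcript, was taken where the platform annotation gave it a single gene symbol starting with Rpl or Rps and a digit, or the symbol Rplp0, Rplp1, Rplp2 or Rpsa. Symbols of the Rps6k kinases were left out. This rule found 50 probe sets of 44 genes among 10411 genes with a single symbol, 30 genes of the large and 14 of the small subunit. Where a gene had several probe sets, the one with the highest mean over the 4 arrays stood for it. A further 28 probe sets carried several symbols, all matching the family, and were not named. Of the members looked for because of their roles, Rplp1, Rplp2, Rps14, Rps19, Rps27, Rps27a, Rps4x, Rpl10, Rpl22l1 and Rpl32 had no probe set with a single symbol and were not analysed here.

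The controls were NRVM (neonatal rat ventricular myocytes, a primary culture) on uncoated plates, and the other group was the same kind of culture on plates coated with fibronectin, the matrix glycoprotein bound by integrins. In both groups the cells had 24 h with 10% serum and then 48 h without serum, so both had been serum-starved. Each of the 2 groups had 2 arrays of total RNA. The labels name no rat strain, litter or pooling. They also leave unsaid whether both arrays of a coating were hybridised with RNA of different cultures, so the p-values rest on a spread that may be technical.

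The cytosolic ribosome is built from a small subunit, which decodes the mRNA, and a large subunit, which joins amino acids and threads the new chain through an exit tunnel. Ribosomal proteins are made in equal numbers, and their mRNAs are short, abundant and carry a 5' terminal oligopyrimidine (TOP) tract, a start of C and T bases through which the mTOR pathway and the RNA-binding protein Larp1 control translation. Ribosome number rises in growing cardiac myocytes, and hypertrophy, named in the title of the study, is growth of these cells without division. The array reads mRNA level and does not read translation.

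Promoter stretches of 6 members, 5 with a pyrimidine run near the annotated start and 1 without, show the sequence feature that most of the family has. They were chosen because 3 of these genes (Rpl13a, Rps23 and Rpl21) were higher and 2 (Rpl7a and Rps24) lower on fibronectin without overlap between the groups, while the paralog Rps27l had the largest difference of all. Each stretch runs from 45 bases before the annotated start through the first 15 transcribed bases, in RefSeq's GRCr8 assembly, written 5′ to 3′ on the strand of the gene. Capitals mark runs of at least 8 bases that are all C or T. A run near the annotated start need not be a TOP tract, which opens the mRNA itself. The marked runs of Rpl13a, Rpl21 and Rpl7a end before the annotated start. In the order below they lie at chr1:104748899-104748958 (minus strand), chr2:23814472-23814531 (plus), chr12:13386139-13386198 (minus), chr3:30637091-30637150 (plus), chr16:96472-96531 (plus) and chr8:76443613-76443672 (plus).
Rpl13a: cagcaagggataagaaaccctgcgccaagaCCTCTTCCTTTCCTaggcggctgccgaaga
Rps23: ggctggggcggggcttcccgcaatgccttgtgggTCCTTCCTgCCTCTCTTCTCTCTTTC
Rpl21: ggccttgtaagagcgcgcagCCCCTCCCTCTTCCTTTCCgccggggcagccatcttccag
Rpl7a: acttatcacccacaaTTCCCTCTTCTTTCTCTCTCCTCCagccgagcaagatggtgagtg
Rps24: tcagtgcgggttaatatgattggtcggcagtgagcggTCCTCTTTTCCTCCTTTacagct
Rps27l: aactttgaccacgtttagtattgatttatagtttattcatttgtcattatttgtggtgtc

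Such runs stand in stretches of members from both directions, whereas the stretch of Rps27l has none. The stretches of Rpl11 and Rpl6 (lower) and Rpl39 (higher), not printed, have none either. Of the 44 genes, 39 had a promoter in the RefSeq table. Within 40 bases on each side of the annotated start, 31 of the 39 (79.5%) held a run of at least 8 C or T bases on the strand of the gene, against 30.2% of all 33469 promoters in the same window. On the opposite strand the shares were 23.1% and 30.8%. The motif TTCCTTT, which can lie within such a run, was found on the strand of the gene in 10 of the 39 (25.6%), against 1.39% of all promoters. Counting either strand, the shares were 25.6% and 2.70%. The median log2 difference between fibronectin and control was 0.11 over the 30 tested members with a run and 0.18 over the 8 without one.

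Ribosomal protein transcripts gave some of the brightest signals on these arrays. The median member lay at the 99.3rd percentile of all probe sets on control replicate 1 and at the 99.4th on each of the other arrays. Of the 44 genes, 38 had a mean percentile above 98. The remaining 6 were Rpl39, Rps27l, Rpl7l1, Rps4y2, Rpl30 and Rpl3l. Probe sets bind with different strength, so this ranks signals and not transcript numbers. Rpl3l, a paralog of Rpl3 typical of striated muscle, read 2.5 and 1.63 on the controls and 2.90 and 3.90 on fibronectin in deposited intensity. All 4 values lay below the floor of 23.4 set for dim signals after normalization, so Rpl3l was the 1 member left out as dim and has no fold change. The other 43 genes were tested.

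**Figure D1:**
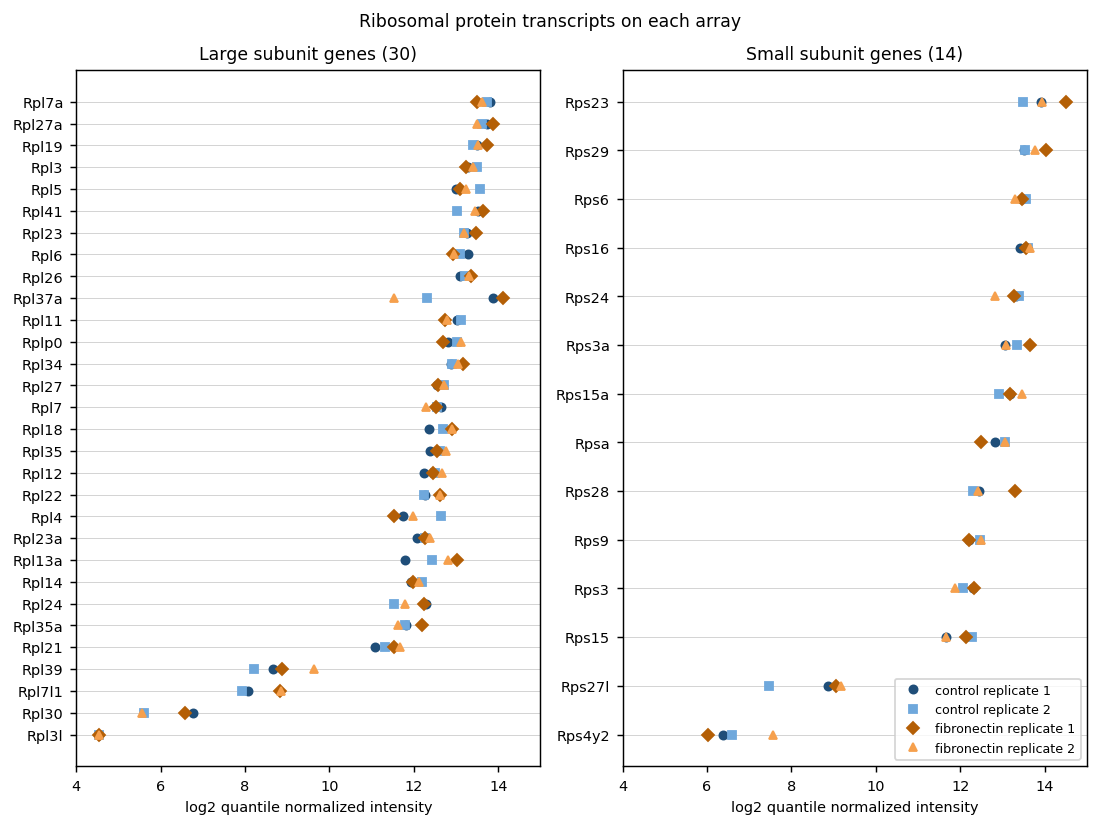
Each row is a ribosomal protein gene and each symbol the log2 quantile normalized intensity of 1 array, with blue for the 2 control and orange for the 2 fibronectin arrays. Most genes lie between 11 and 14.5 with the arrays close together, Rpl37a spreads by replicate number and Rpl3l sits at the floor of 4.55.

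Members varied less between replicates than the array as a whole. The median gap between the controls was 0.21 on the log2 scale over the 43 members and 0.36 over all 9519 tested probe sets. Between the fibronectin arrays it was 0.22 and 0.58. Members were also brighter than most probe sets, and the part of brightness in this was not tested. Log2 differences between coated and uncoated dishes had an SD of 0.33 over the members and 0.66 over all tested probe sets, and 88.4% of members and 61.3% of all tested probe sets differed by less than 0.5. Across the 43 genes, which share their arrays and are not independent, log2 signals correlated with r from 0.948 to 0.983 between pairs of arrays. The pairs of all 9519 probe sets gave 0.775 to 0.911. Among the members Rpl39, Rps27l, Rpl7l1, Rps4y2 and Rpl30 lay far below the others, and r depends on such a spread of levels. The r values of the 2 sets are therefore not comparable as measures of agreement. Fibronectin replicate 2 stood apart over all probe sets, with 0.775 and 0.794 against the controls and 0.792 against fibronectin replicate 1. Over the members alone it correlated at 0.973 with control replicate 2.

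Comparing fibronectin with control asked whether ribosomal protein transcripts differ in myocytes on the coated dishes. After quantile normalization, which gives every array the same distribution, the family lay close to its control level, with a median log2 difference of 0.11, or 1.08-fold. The middle 50% of members lay between -0.10 and 0.29, and single genes ran from -0.44 for Rpl4 to 0.94 for Rps27l. Values were above 0 for 28 of 43 genes (65.1%), where 48.7% of all tested probe sets were above 0. The median of all tested probe sets was -0.02. Relative to each gene's control mean, the family's median was -0.04 and 0.04 on control replicates 1 and 2, and 0.17 and 0.08 on fibronectin replicates 1 and 2. Both fibronectin arrays lay above both controls, and the fibronectin arrays differed from each other by about as much as the controls did.

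No ribosomal protein gene passed limma's test. The adjusted p (Benjamini-Hochberg over all 9519 tested probe sets, threshold 0.05) was 0.720 at its lowest among members, for Rpl13a, and 0 probe sets passed on the whole array (0%). At an unadjusted p under 0.05, 2 members were higher, Rpl13a and Rpl7l1, and 0 lower. Of all tested probe sets limma called 2.64% higher and 3.87% lower at that p. The Rpl7l1 probe set was chosen over another through its fibronectin values, so its direction here and in the next count rests on that choice. The fibronectin values lay above both controls for 13 members (30.2%) and below both for 5 (11.6%). Over all tested probe sets these shares were 19.2% and 19.1%. A difference of at least 1 without overlap was found for 0 members in either direction, against 3.39% of all tested probe sets higher and 5.81% lower.

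**Figure D2:**
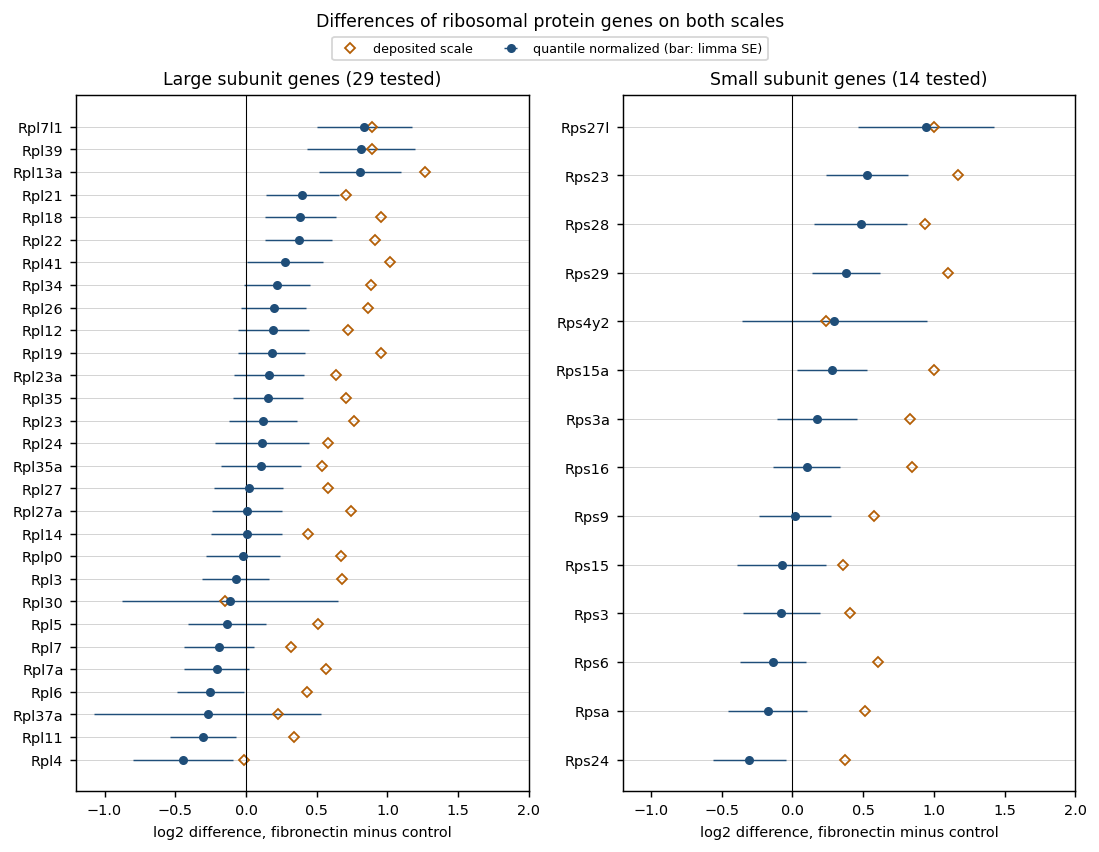
Filled points give the log2 difference (fibronectin minus control) of each of the 43 tested genes after quantile normalization with limma's standard error as a bar, and open diamonds the difference on the deposited scale. Filled points scatter around 0, from -0.44 for Rpl4 to 0.94 for Rps27l, while 41 of the 43 diamonds lie above 0.

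The scale decided the size and, for many members, the sign of the difference. On the deposited scale, without further normalization, 41 of 43 genes had values above 0 on fibronectin against control, where 54.3% of all tested probe sets did, with a median log2 difference of 0.68, or 1.60-fold. The exceptions were Rpl30 at -0.15 and Rpl4 at -0.02. Groups did not overlap for 34 members, all higher, where 20.6% of all tested probe sets were higher and 12.5% lower without overlap. With the arrays brought to the same median, 35 members were higher and 0 lower without overlap, with a median of 0.63, where 20.6% of all tested probe sets were higher and 16% lower. With the same trimmed mean 29 were higher and 0 lower, with a median of 0.59, where 18.6% of all were higher and 19.6% lower. With quantile normalization on the probe sets outside the family, 18 members were higher and 3 lower without overlap, with a median of 0.15. On that scale 19.3% of all tested probe sets were higher and 19% lower. Over all tested probe sets the median was 0.06 on the deposited scale. In limma's test on that scale 0 members and 0 of 9519 probe sets (0%) passed, and the lowest adjusted p was 0.570, found for Rps23 and Rps29.

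Other bright probe sets were higher on the deposited scale too. Among the 159 brightest probe sets, the top 1% of the array, 32 were members and 106 belonged to no ribosomal protein symbol. Those 106 had a median log2 difference of 0.64 on the deposited scale and 0.04 after quantile normalization. Above a log2 mean intensity of 13, the 18 members had a median of 0.79 and the 43 other probe sets a median of 0.79, both on the deposited scale. Between 12 and 13 the medians were 0.61 for 16 members and 0.51 for 72 others. Between 11 and 12 they were 0.45 for 4 members and 0.37 for 164 others. Between 8 and 9 the 3 members Rpl39, Rpl7l1 and Rps27l had a median of 0.89, against 0.06 for 2109 others. The Rpl7l1 probe set had been chosen through its fibronectin values. Between 6 and 7 the medians were 0.04 for 2 members and -0.03 for 3031 others.

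**Figure D3:**
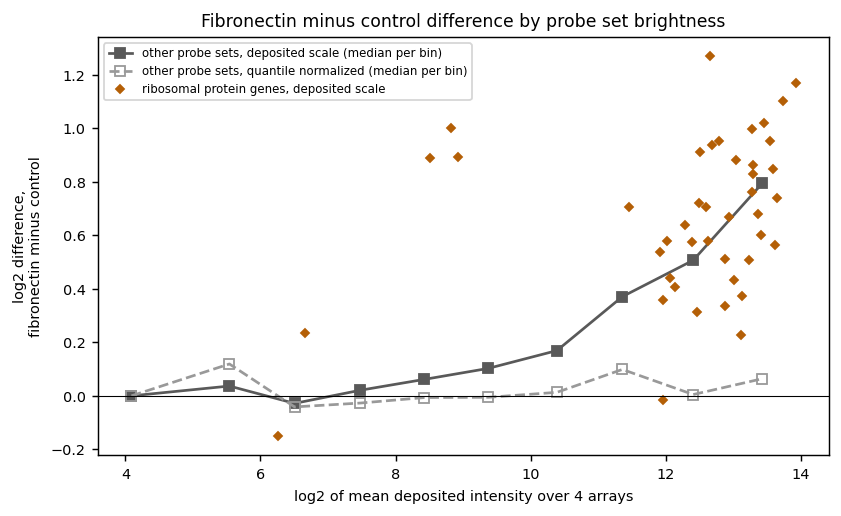
The log2 difference (fibronectin minus control) is plotted against the log2 of the mean deposited intensity. Diamonds are the 43 tested ribosomal protein genes on the deposited scale, and the squares are medians of other probe sets in bins of brightness, filled on the deposited scale and open after quantile normalization. The filled squares climb from about 0 in dim bins to 0.79 in the brightest, in the middle of the members there, while the open squares stay near 0.

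The share of each array's summed signal does not depend on a constant by which an array was multiplied. The 44 genes took 4.78% and 5.61% of the summed deposited intensity on control replicates 1 and 2, and 6.52% and 7.73% on fibronectin replicates 1 and 2. Large subunit genes took 3.15% and 3.66% on the controls and 4.17% and 4.89% on fibronectin. Small subunit genes took 1.64% and 1.96% on the controls and 2.36% and 2.84% on fibronectin. Both subunits therefore held a larger share on each fibronectin array than on each control array. The 106 other probe sets of the top 1% took 14.2% and 16.5% on the controls, against 16.6% and 23.3% on fibronectin. These did not overlap, but control replicate 2 and fibronectin replicate 1 were nearly equal. The ratio of signal at the 3' end of the Gapdh transcript to that at its 5' end also separated the groups. It was 1.64 and 1.15 on the controls but 6.02 and 3.52 on fibronectin. For beta-actin it was 1.46 and 1.40 on the controls but 13.03 and 6.29 on fibronectin. For hexokinase the groups overlapped, with 3.77 and 4.12 on the controls and 3.11 and 7 on fibronectin. Affymetrix arrays carry these probe sets as a check of RNA integrity and labelling, and the part of the ratios in the ribosomal protein values was not tested.

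Large and small subunit genes did not part from each other by more than the spread between arrays. After quantile normalization the median log2 difference was 0.11 over 29 large subunit genes and 0.14 over 14 small subunit genes, so that large minus small was -0.026. Arrays of 1 group differed in this quantity with an SD of 0.075. Large minus small was 0.035 and -0.035 on control replicates 1 and 2, and 0.075 and -0.058 on fibronectin replicates 1 and 2, with both fibronectin values outside the control pair on opposite sides. The sign was not stable, since large minus small was 0.076 without control replicate 1 and 0.050 when the paralogs Rpl3l, Rpl7l1, Rps27l and Rps4y2 were left out. Large subunit genes were above 0 in 19 of 29 cases and small subunit genes in 9 of 14. On the deposited scale the medians were 0.68 and 0.72, and large minus small was -0.036.

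The genes with the largest higher values were a mix of core proteins and paralogs. Rpl13a, a large subunit protein also known for a role outside the ribosome in silencing inflammatory mRNAs, measured 11.79 and 12.43 on the controls and 13.02 and 12.81 on fibronectin in log2 signal. Both fibronectin arrays were higher, and the gap between the controls was larger than that between the fibronectin arrays. The difference was 0.80 (SE 0.29), 1.75-fold, with limma's adjusted p = 0.720, and it ran from 0.51 without control replicate 1 to 1.14 without control replicate 2. Rpl13a was also the highest of all members on the deposited scale, at 1.27.

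Rps23, a small subunit protein of the decoding centre, was the brightest member. Its log2 signal was 13.91 and 13.48 on the controls and 14.50 and 13.94 on fibronectin, so fibronectin replicate 2 was barely above control replicate 1. It differed by 0.53 (SE 0.29, limma's adjusted p = 0.769), or by 0.27 without fibronectin replicate 1. Rpl39, a small protein that lines the exit tunnel, measured 8.67 and 8.22 on the controls and 8.88 and 9.63 on fibronectin. Its difference of 0.81 (SE 0.38, limma's adjusted p = 0.761) was 0.44 without fibronectin replicate 2, the array with the highest value. Rpl21, a large subunit protein, read 11.07 and 11.33 on the controls and 11.52 and 11.68 on fibronectin, a difference of 0.40 (SE 0.26). The other members higher without overlap were Rpl18, Rpl19, Rpl22, Rpl26, Rpl34, Rps15a and Rps29, with differences from 0.18 for Rpl19 to 0.38 for Rpl18, and on the deposited scale from 0.86 for Rpl26 to 1.10 for Rps29. Rps29, a small subunit protein, illustrates them with 13.51 and 13.52 on the controls and 14.03 and 13.76 on fibronectin, a difference of 0.38 (SE 0.24). These 7 fell outside the rule for named genes, other than Rpl22, and are given after their values were seen.

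Paralogs gave the remaining large values. Rps27l, a close relative of Rps27 known as a target of p53, measured 8.86 and 7.47 on the controls and 9.05 and 9.16 on fibronectin. Control replicate 2 was the low array, and the other arrays lay close together. The difference was 0.94 (SE 0.48, limma's adjusted p = 0.761), and it was 0.25 without control replicate 2 and 1.64 without control replicate 1. Rpl7l1, a relative of Rpl7, measured 8.08 and 7.93 on the controls and 8.83 and 8.85 on fibronectin in its brighter probe set. That difference of 0.84 (SE 0.33, limma's adjusted p = 0.750) was opposed by its other probe set. Rps4y2, a paralog of Rps4x, differed by 0.30 (SE 0.65), with 6.02 and 7.55 on the fibronectin arrays on either side of the controls at 6.39 and 6.59.

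The 5 members with lower values and no overlap had small differences, and each was above 0 on the deposited scale. Rpl11, which with Rpl5 forms the particle that carries ribosomal RNA and binds Mdm2, read 13.02 and 13.11 on the controls and 12.75 and 12.78 on fibronectin. Its difference was -0.30 (SE 0.23, limma's adjusted p = 0.788), and 0.34 on the deposited scale. Rps24, a small subunit protein, measured 13.31 and 13.40 on the controls and 13.27 and 12.83 on fibronectin. The low array was fibronectin replicate 2, and the difference of -0.30 (SE 0.26) was -0.06 without it and 0.37 on the deposited scale. For the large subunit proteins Rpl6, Rpl7a and Rpl7 the differences were -0.25 (SE 0.24), -0.21 (SE 0.23) and -0.19 (SE 0.24), and on the deposited scale they were 0.43, 0.56 and 0.31. Rpl4, a large subunit protein around the exit tunnel, had the lowest difference of all, -0.44 (SE 0.35), but its groups overlapped: it read 11.74 and 12.65 on the controls and 11.52 and 11.98 on fibronectin.

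Of the members named for their roles, Rplp0, Rps6, Rpl3, Rpl5 and Rps3 differed by less than 1 SE after quantile normalization, whereas Rpl13a, Rps27l, Rpl22 and Rpl11 differed by more. Rplp0, the base of the stalk that recruits elongation factors, read 12.81 and 13.03 on the controls and 12.68 and 13.11 on fibronectin, with the controls between the fibronectin arrays. Its difference was -0.02 (SE 0.26), and 0.67 on the deposited scale. Rps6, the substrate of the Rps6k kinases, measured 13.46 and 13.56 on the controls and 13.46 and 13.29 on fibronectin. It differed by -0.14 (SE 0.23), and by 0.60 on the deposited scale. Rpl3, which lies near the centre where amino acids are joined, differed by -0.07 (SE 0.24), and Rpl5 by -0.13 (SE 0.28), from controls at 13.01 and 13.58 that enclosed both fibronectin values of 13.08 and 13.24. Rps3, at the channel where mRNA enters, differed by -0.08 (SE 0.27). Rpl22, an RNA-binding protein of the large subunit, was more separate: it read 12.26 and 12.23 on the controls and 12.61 and 12.62 on fibronectin, a difference of 0.37 (SE 0.24, limma's adjusted p = 0.772). Smallest of all were the differences of Rpl14 at 0.004 (SE 0.25), Rpl27a at 0.009 (SE 0.25), Rps9 at 0.02 (SE 0.26) and Rpl27 at 0.02 (SE 0.24). On the deposited scale Rpl3, Rpl5, Rps3 and Rpl22 differed by 0.68, 0.51, 0.41 and 0.91.

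Some members separated the arrays by replicate number rather than by coating, in no shared direction. In both groups replicate 1 was above replicate 2 for 12 of the 43 genes and below it for 15. The same was not counted over all tested probe sets, so these counts cannot be read as a trait of the family. The replicate gap of the controls correlated with that of the fibronectin arrays at 0.53 over members and 0.27 over all tested probe sets. Rpl37a, a zinc-finger protein of the large subunit, measured 13.87 on control replicate 1 and 14.11 on fibronectin replicate 1, but 12.31 and 11.53 on the 2 replicates numbered 2. Its difference between the coatings was -0.27 (SE 0.80). The only Rpl30 probe set with a single symbol was dim and split the same way, with 6.76 and 6.57 on the replicates numbered 1 and 5.60 and 5.56 on those numbered 2. Rpl24 read 12.28 and 12.24 on the replicates numbered 1 and 11.52 and 11.79 on the others. Rpl37a, Rpl30 and Rps27l were the 3 members whose controls differed by more than 1, and 3 members had fibronectin arrays that far apart. These names were chosen after their values were seen.

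Of the 5 genes with more than 1 probe set, 3 had probe sets that differed in sign. Rpsa, the small subunit protein also known as the laminin receptor precursor, had a brightest probe set (1367569_at) at 12.83 and 13.06 on the controls and 12.48 and 13.05 on fibronectin, a difference of -0.18 (SE 0.28). Its probe set 1388244_s_at read 11.42 and 11.73 on the controls and 12.76 and 12.54 on fibronectin, a difference of 1.07 (SE 0.26, limma's adjusted p = 0.587). The third, 1371189_x_at, differed by 0.83 (SE 0.37). On the deposited scale all 3 were higher, by 0.51, 1.53 and 0.95, so the disagreement in sign held only after quantile normalization. Affymetrix gives the suffixes _s_at and _x_at to probe sets whose probes can match other transcripts.

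For Rpl7l1 the probe sets opposed each other on both scales. Probe set 1389013_at measured 8.52 and 8.78 on the controls and 7.65 and 7.77 on fibronectin. Its difference was -0.93 (SE 0.35, limma's adjusted p = 0.731), against 0.84 in the chosen 1372391_at, which was brighter only on the fibronectin arrays. Each separated the groups without overlap, in opposite directions, and on the deposited scale they differed by -0.87 and 0.89. For Rpl7 the bright probe set differed by -0.19 and the dimmer one by 0.39 (SE 0.38), the latter with overlapping groups. On the deposited scale both Rpl7 probe sets were higher, by 0.31 and 0.44. Rpl14 had a second probe set, left out as dim, that read 4.75 and 4.90 on the controls, near the floor, and 5.93 and 6.87 on fibronectin. The second Rps24 probe set, also dim, read 5.41 and 5.90 on the controls and 6.28 and 4.55 on fibronectin, the last at the floor.

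**Figure D4:**
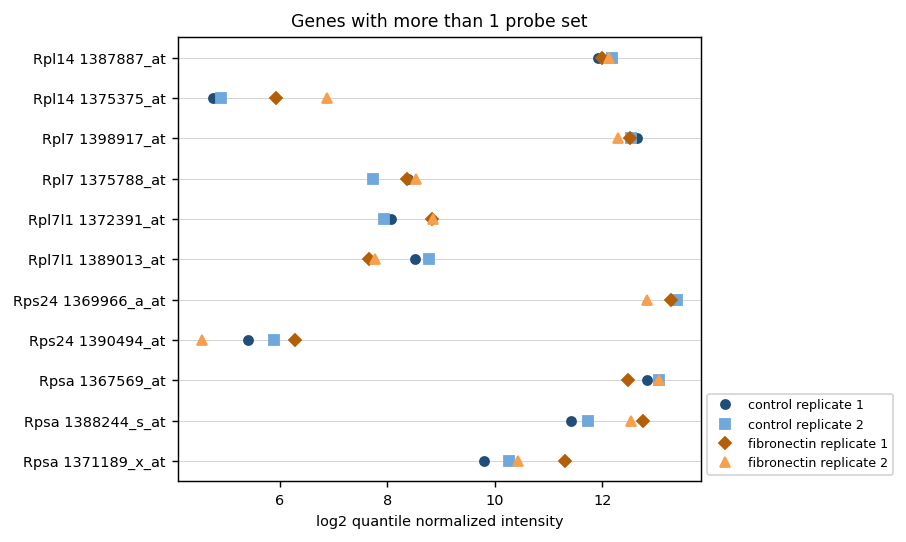
Each row is a probe set of the 5 genes with more than 1, with log2 quantile normalized intensity on the x axis and 1 symbol per array. The Rpl7l1 probe sets place fibronectin on opposite sides of the controls, and the 2 dimmer Rpsa probe sets place fibronectin to the right while the brightest does not.

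The other genes of the ribosome and its making were taken from lists drawn up by role, with earlier results of these data known. Rack1, the scaffold protein of the small subunit whose symbol the rule did not match, read 12.73 and 12.97 on the controls and 12.83 and 13.27 on fibronectin, a difference of 0.20 (SE 0.27). Of 37 tested genes of ribosome biogenesis, which make and assemble the subunits, 27 were above 0 and the median log2 difference was 0.21. The groups did not overlap for 15 of them, all higher (40.5%), where 19.2% of all tested probe sets were higher. At least Gar1, Mrto4 and Polr1e among these passed the filter on dim signals only through fibronectin. Their control means were 5.86, 5.60 and 5.55, so for them the filter favoured the higher direction. Gar1, which helps to modify ribosomal RNA, measured 5.67 and 6.05 on the controls and 7.28 and 7.504 on fibronectin, a difference of 1.53 (SE 0.54). Mrto4, an assembly factor of the large subunit, was at the floor of 4.55 on control replicate 1 and at 6.65 on control replicate 2, against 8.01 and 7.18, so its difference of 2.00 (SE 0.78) has an uncertain size and was 0.94 without control replicate 1. In the other direction were Polr1a, the largest subunit of RNA polymerase I, at -0.45 (SE 0.53) and the helicase Ddx21 at -0.39 (SE 0.51).

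Mitochondrial ribosomal proteins, encoded in the nucleus for the separate ribosome of mitochondria, had a higher median than the cytosolic family. Of 70 tested genes 55 were above 0, with a median log2 difference of 0.36, and the groups did not overlap for 34 higher (48.6%) and 5 lower (7.14%) genes, where 19.2% and 19.1% of all tested probe sets were so. Leaving out 1 array moved this median between 0.23 and 0.40, and on the deposited scale it was 0.44, below the 0.68 of the cytosolic genes. Mrpl27 read 9.23 and 8.18 on the controls and 9.85 and 10.03 on fibronectin, a difference of 1.23 (SE 0.40), while Mrps27 differed by 1.13 (SE 0.60), or 0.39 without fibronectin replicate 2. Mrpl40 measured 8.503 and 7.70 on the controls and 6.65 and 6.14 on fibronectin, a difference of -1.71 (SE 0.48). Mrps5 read 7.86 and 7.19 on the controls and 7.42 and 4.55 on fibronectin, the last value being the floor. The difference of -1.54 (SE 0.90) was -0.11 when that array was left out. The difference between the cytosolic and mitochondrial families was not tested.

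Other transcripts with TOP tracts, mostly translation factors, did not share one direction. Of 16 tested, 9 were above 0, 6 were higher (37.5%) and 2 lower (12.5%) without overlap, where 19.2% and 19.1% of all tested probe sets were so, and the median was 0.07. Eef1d, a nucleotide exchange subunit of the elongation machinery, read 10.20 and 10.77 on the controls and 11.28 and 11.64 on fibronectin, a difference of 0.97 (SE 0.31), and Eif3f, an initiation factor subunit, differed by 0.62 (SE 0.26). Nap1l1, a histone chaperone, read 10.67 and 10.80 on the controls and 9.37 and 9.62 on fibronectin, a difference of -1.24 (SE 0.28), and Eif4a2, an initiation helicase, differed by -1.199 (SE 0.35). Of 14 tested genes that control TOP translation, none was higher and 5 (35.7%) were lower without overlap, where 19.1% of all tested probe sets were lower, and the median was 0.0060. On the deposited scale 1 was higher and 0 lower without overlap. The median level relative to the control mean was 0.10 and -0.10 on the controls and -0.13 and -0.30 on fibronectin, so the median of the differences and these medians differ in sign. Among them Rptor, the subunit that defines mTOR complex 1, differed by -0.60 (SE 0.44), or -0.11 without fibronectin replicate 2, and Eif4e, which binds the mRNA cap, by -0.48 (SE 0.32). Tsc1, an inhibitor of the pathway, differed by 0.41 (SE 0.59), and Eif4ebp1, an inhibitor of Eif4e, by 0.38 (SE 0.37), both with overlap. The inhibitors Tsc2 and Eif4ebp2 went the other way, lower without overlap at -0.44 (SE 0.37) and -0.36 (SE 0.33). These 2 were named after their values were seen, and inhibitors of the pathway shared no direction. No gene of these lists passed limma's test, the lowest Benjamini-Hochberg adjusted p being 0.587 for Nap1l1.

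**Figure D5:**
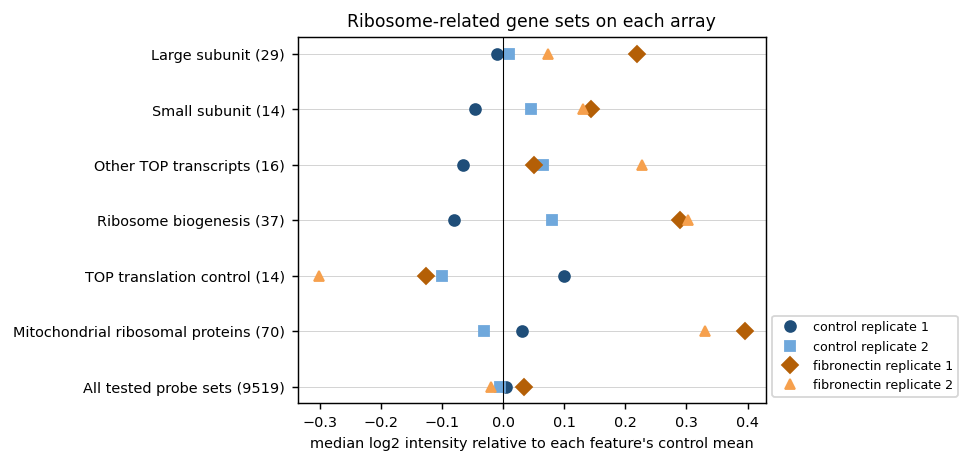
For each gene set the symbols give the median log2 quantile normalized intensity relative to each feature's control mean on every array, with the number of tested features in brackets. The 2 subunits lie between 0.07 and 0.22 on fibronectin, the mitochondrial ribosomal proteins at 0.40 and 0.33, and all tested probe sets at 0.03 and -0.02.

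Markers of the labelled cell type were present. All 13 measured markers of ventricular myocytes were bright enough to be tested, and their summed normalized intensity ran from 86463 to 88973 on the controls and from 94147 to 96536 on fibronectin. A sum follows its brightest genes. By gene, 8 of these markers were above 0 and 5 below, with a median log2 difference of 0.10. Over all tested probe sets 48.7% were above 0. Markers of fibroblasts, 13 of 13 tested, summed to between 42413 and 58124 on the controls and between 31948 and 42795 on fibronectin. By gene, 4 were above 0 and 9 below, with a median log2 difference of -0.74. Without overlap 2 fibroblast markers were higher (15.4%) and 6 lower (46.2%), against 3 (23.1%) and 2 (15.4%) of the myocyte markers. Over all tested probe sets these shares were 19.2% and 19.1%. On the deposited scale the median of the 13 fibroblast markers was -0.05, with 3 higher and 4 lower without overlap. For the 13 myocyte markers it was 0.59, with 7 higher and 1 lower. Over all tested probe sets it was 0.06, with 20.6% higher and 12.5% lower. All 11 leukocyte markers on the array, 7 of them tested, summed to 2261 and 2874 on the controls and to 1555 and 2013 on fibronectin. All 6 neural and Schwann cell markers on the array, 4 of them tested, summed to 507 and 613 on the controls and to 754 and 1119 on fibronectin. The sums for fibroblast, endothelial, smooth muscle and erythroid markers overlapped between the groups, and no measured marker of any type was at the floor on all 4 arrays. In RNA from whole cultures, fewer cells of a type and less RNA per cell cannot be told apart, and the part of cell makeup in the ribosomal protein values was not tested.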

How the data were processed

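The table deposited by the authors holds a linear signal intensity for each Affymetrix probe set and array. The software and scaling behind it are not given in the sources used here. Of 15875 probe sets, 9 Affymetrix controls were left out. Intensities were quantile normalized, set to at least 23.4, their 20th percentile, and converted to log2. The dimmest 40% by mean (6347 probe sets) did not enter the test. For the other 9519, limma 3.58.1 (R 4.3.3; lmFit, then eBayes with trend) gave two-sided p-values, with Benjamini-Hochberg adjustment. With 2 arrays a group, the smallest two-sided exact permutation p is 0.333, and the number of arrays limits the precision. Errors are limma's moderated standard errors. The script was tested on simulated data. Symbols are those of GEO's platform annotation, and Entrez identifiers of 42 of the 44 genes were found in the GRCr8 gene table, with 0 symbols changed.

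The members and lists were chosen with earlier results of these data known. Named genes were up to 6 members without overlap and of largest difference in each direction, the 6 of smallest difference, members listed for their roles, members whose probe sets differed in sign, and from each other list up to 2 genes of largest difference in each direction. Alternatives were the deposited scale, equal medians, equal trimmed means (2% off each end), quantile normalization on probe sets outside the family, no filter, 60% left out, no floor, an offset of 50, no trend, the replicate number as a block, other choices of probe set, and leaving out each array.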

Additional observations from a re-analysis of the deposited data

Results flagged for a closer look

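Affymetrix control probe sets outside the comparison gave 3' to 5' ratios for Gapdh and beta-actin above those of both control arrays. The ratio of 3' to 5' signal was 6.02 on fibronectin replicate 1 and 3.52 on fibronectin replicate 2 for Gapdh, against 1.64 and 1.15 on the controls. For beta-actin it was 13.03 and 6.29, against 1.46 and 1.40. For hexokinase it was 3.11 and 7 on fibronectin and 3.77 and 4.12 on the controls, which overlap. The part of these ratios in the ribosomal protein values was not tested.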

How the results depend on the processing

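The family's median log2 difference of 0.11 was 0.68 on the deposited scale, 0.63 with equal medians and 0.59 with equal trimmed means. For large subunit genes these were 0.68, 0.63 and 0.59, and for small subunit genes 0.72, 0.67 and 0.63. The small subunit median was 0.21 with quantile normalization on probe sets outside the family, 0.23 over all probe sets of the family or their mean per gene, where large minus small was -0.12, and 0.058 without Rpl3l, Rpl7l1, Rps27l and Rps4y2, where large minus small was 0.050. That last set and the inclusion of probe sets with several symbols were chosen after seeing the data. On the deposited scale Rack1 was at 0.88, other TOP transcripts at 0.43 and mitochondrial ribosomal proteins at 0.44, and Rpl11, Rpl3, Rpl5, Rpl6, Rpl7, Rpl7a, Rplp0, Rps24, Rps3, Rps6 and Rpsa turned from lower to higher at 0.34, 0.68, 0.51, 0.43, 0.31, 0.56, 0.67, 0.37, 0.41, 0.60 and 0.51. Leaving out 1 array gave 0 to 429 called probe sets (12 without control replicate 1, 429 without fibronectin replicate 1, 16 without fibronectin replicate 2), with 0 members called each time, where a single array left in a group was given the spread of the remaining pair. Medians then ran from 0.07 to 0.15 for the family, 0.07 to 0.16 for large and 0.028 to 0.21 for small subunit genes, and -0.10 to 0.076 for large minus small. They ran from -0.022 to 0.45 for Rack1, 0.048 to 0.23 for other TOP transcripts, 0.24 to 0.35 for biogenesis, -0.37 to 0.080 for TOP control and 0.23 to 0.40 for mitochondrial ribosomal proteins. Signs also turned for Rpl14 (-0.14 to 0.14), Rpl27 (-0.071 to 0.11), Rpl27a (-0.17 to 0.14), Rpl3 (-0.19 to 0.036), Rpl5 (-0.44 to 0.15), Rplp0 (-0.19 to 0.20), Rps3 (-0.28 to 0.15), Rps9 (-0.11 to 0.17), Rpsa (-0.42 to 0.13), Ddx21 (-0.86 to 0.14) and Eif4ebp1 (-0.11 to 0.87). Without fibronectin replicate 1, Eif4a2, Mrps27 and Mrps5 passed limma's threshold, at -1.61, 1.80 and -2.91. With the replicate number as a block, limma called 230 probe sets (2.42%) and 1 member, Rpl13a (0.80, SE 0.22, adjusted p = 0.0471), and the list medians kept their values. Deviations of arrays with the same number correlated at 0.27 over all tested probe sets and 0.53 over members, but the labels do not say that the number marks a shared culture or day. The causes of these changes were not tested. No detection calls were used, and signals below the floor have no order.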

Other observations

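The 28 probe sets with several symbols, all matching the family, were not used for named genes. All 28 were bright enough to be tested. Their median log2 difference was 0.18 after quantile normalization, with 21 above 0, and 0.71 on the deposited scale, with 28 above 0. Their groups did not overlap for 8 higher (28.6%) and 3 lower (10.7%) probe sets after quantile normalization, where 19.2% and 19.1% of all tested probe sets were so. They took 2.94% and 3.53% of the summed signal on the controls and 3.93% and 5.23% on fibronectin.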
